A study of Mus musculus with 15 samples.

Results

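Transcripts of 10 genes that bring fatty acids into cells and carry them there were followed in brown adipose tissue, the fat depot that burns lipid to make heat, of mice exposed to bisphenol S (BPS), a plastics chemical used in place of bisphenol A. The genes were Lpl, Gpihbp1, Angptl4, Vldlr, Cd36, Slc27a1, Slc27a2, Fabp3, Fabp4 and Fabp5. They were taken by gene symbol from a table of 16774 genes, and all 10 were found. Tissue came from 7 mice of the BPS group and 8 mice of the vehicle group, and its poly(A) RNA was sequenced in bulk, with 1 library per mouse identifier. Per the title of the series, the comparison asks how an environmental dose of BPS bears on aging of this tissue. The strain, sex, age, dose, length of exposure and nature of the vehicle are not given in the sources used here. Libraries are named by group and by the number their titles carry.

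Fat cells take many of their fatty acids from triglyceride carried in blood lipoproteins. Lipoprotein lipase (Lpl) splits that triglyceride at the capillary wall, where GPIHBP1 holds the enzyme and ANGPTL4 inactivates it. The freed fatty acids enter cells with the help of CD36 and of the Slc27 transport proteins, which also join them to coenzyme A, and small binding proteins of the Fabp family carry them through the cytoplasm. In brown fat this flow feeds the lipid droplets and the mitochondria, and cold raises it.

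Libraries within each group differed in make-up. Values were FPKM, in which the authors scaled abundance by the length of the transcript and the library total, and they summed to between 756556 and 920855 per library. The mean level of 4 Y-linked genes was 0.437% to 74.5% of the vehicle mean in BPS replicates 4, 5, 6 and 8. It was 92.0% to 102.2% in BPS replicates 1, 2 and 3 and 82.9% to 114.7% in vehicle libraries. The X-linked gene Kdm6a was at 6.83 to 9.92 FPKM in those 4 libraries, 4.55 to 4.66 FPKM in BPS replicates 1, 2 and 3 and 3.84 to 5.39 FPKM in vehicle libraries. The pseudogene H2-Ea-ps, picked after its values were seen, was at 4 to 15.3 FPKM in the 4 and listed at 0 in all 11 others. Whether each of the 4 libraries holds RNA of 1 mouse, of the same sex and genotype as the rest, is in doubt. Skeletal muscle transcripts, summed over 14 marker genes, came to 7.59 to 13655 FPKM in BPS libraries. They came to 23962 to 76214 FPKM in vehicle replicates 2, 6 and 8 and 88.6 to 8598 FPKM in the other 5 vehicle libraries. Results are therefore also given without these BPS libraries, without these vehicle libraries, or without both sets, choices made after the data were seen. None of 8 brown fat markers was at 0 in every library, a condition too mild to test the tissue label. Their summed level was 1225 FPKM in BPS replicate 4, 6155 to 16928 FPKM in the other BPS libraries and 7211 to 17114 FPKM in vehicle libraries.

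The 250 bases before an annotated start were available in RefSeq (GRCm38.p6) for 5 of the 10 genes. They are shown for Cd36, whose groups did not overlap, and for Fabp3 and Slc27a2, the pair with the widest range between libraries. Each runs 5′ to 3′ on the strand of its gene.
Cd36: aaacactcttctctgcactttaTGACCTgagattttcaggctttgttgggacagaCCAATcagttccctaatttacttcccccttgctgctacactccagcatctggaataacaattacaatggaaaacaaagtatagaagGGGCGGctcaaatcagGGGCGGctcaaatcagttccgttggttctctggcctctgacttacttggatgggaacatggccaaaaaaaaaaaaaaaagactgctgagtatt
Fabp3: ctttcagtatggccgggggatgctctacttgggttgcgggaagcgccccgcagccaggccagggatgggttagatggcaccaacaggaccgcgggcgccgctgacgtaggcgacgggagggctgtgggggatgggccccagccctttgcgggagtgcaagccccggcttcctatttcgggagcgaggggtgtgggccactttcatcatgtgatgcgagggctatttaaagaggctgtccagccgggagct
Slc27a2: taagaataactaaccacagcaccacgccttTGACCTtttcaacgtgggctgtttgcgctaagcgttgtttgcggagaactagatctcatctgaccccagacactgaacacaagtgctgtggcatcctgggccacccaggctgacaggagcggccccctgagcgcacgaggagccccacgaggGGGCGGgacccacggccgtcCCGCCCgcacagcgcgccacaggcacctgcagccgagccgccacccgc
The Cd36 stretch is chr5:17835897-17836146 on the minus strand, before a start that lies inside the annotated span of the gene. The Fabp3 stretch is chr4:130308488-130308737 and the Slc27a2 stretch is chr2:126552774-126553023, both on the plus strand. Capitals mark matches to any of the 6 motifs named next, each searched on both strands with overlaps between motifs allowed.

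AGGTCA, the hexamer to which many nuclear receptors bind, was found on the other strand (read as TGACCT) at bases -228 to -223 from the start in Cd36 and at bases -220 to -215 in Slc27a2. It is in 14.02% of 32851 stretches of this length before mouse genes. CCAAT was found in Cd36 and is in 33.8% of all. GGGCGG was found at bases -109 and -93 in Cd36 and at bases -68 and -48 in Slc27a2, and it is in 32.7% of all. A direct repeat of AGGTCA with 1 base between the copies, bound by PPAR and RXR receptors together, is in 0.0335% of all and in none of the 3 shown. TNAAGGTCA is in 1.14% and TATAAA in 12.4% of all, and neither is in the 3 shown. The Fabp3 stretch held none of the motifs. Its GC content was 64.8%, against 64.0% for Slc27a2, 43.2% for Cd36 and a median of 52.4% over all. A match describes letters only.

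The 10 genes spanned a wide range of levels, with Fabp4, the main carrier of fat cells, far above the rest. Fabp4 was the most abundant gene in each of the 15 libraries and made up 4.51% to 7.26% of all FPKM in BPS libraries and 2.96% to 5.16% in vehicle libraries. FPKM is scaled by length, so that levels of different genes can be set side by side. In BPS libraries the mean levels ran, from high to low, Fabp4, Lpl, Fabp3, Cd36, Gpihbp1, Angptl4, Fabp5, Slc27a1, Slc27a2 and Vldlr. In vehicle libraries Fabp3 stood above Lpl and Slc27a2 above Slc27a1, and the other places were the same. The ranges of these neighbours overlapped in both groups, and their order was not tested. Fabp3 exceeded Lpl in 4 of 7 BPS libraries and 7 of 8 vehicle libraries, and Slc27a2 exceeded Slc27a1 in 3 of 7 BPS libraries and 4 of 8 vehicle libraries. The ranges of Gpihbp1 and Angptl4 also overlapped in both groups, as did those of Fabp5 and Slc27a2. Fabp4 lay above Fabp3, Lpl above Cd36, and Slc27a1 above Vldlr without overlap in either group.

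**Figure D1:**
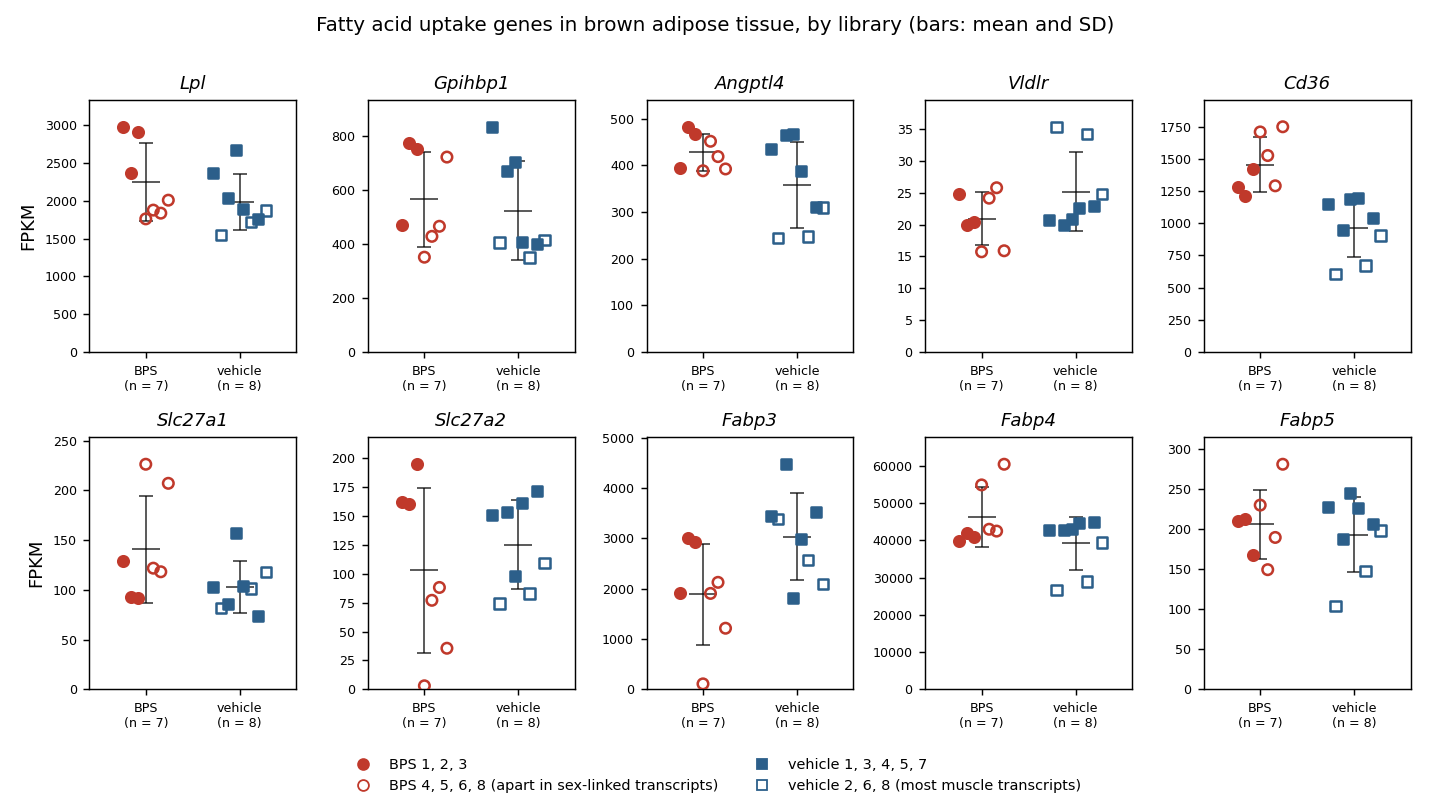
FPKM of each of the 10 genes (vertical axes) in 7 BPS libraries on the left and 8 vehicle libraries on the right, 1 point per library, with the mean and SD. Open symbols are BPS replicates 4, 5, 6 and 8 and vehicle replicates 2, 6 and 8. The groups of Cd36 are apart, at 1211 to 1750 FPKM in BPS and 607 to 1193 FPKM in vehicle, whereas those of the other 9 genes overlap.

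None of the 10 genes passed the threshold over all genes, and Cd36 had the smallest p among them. The test was limma on log2(FPKM + 1), adjusted by Benjamini-Hochberg, and the threshold was 0.05. All 10 genes had at least 1 FPKM in at least 7 libraries and were among 12156 genes tested, of which 42 were higher and 8 lower in BPS, or 0.411% in all. With libraries scaled to a common median the counts were 56 higher and 21 lower. At an unadjusted p under 0.05 stood 1 of the 10 genes, Cd36, where 23.1% of all tested genes did. Log2 changes were positive in 7 of 10 genes with a median of 0.15, against 7107 of 12156 with a median of 0.05 over all tested genes. In the authors' deposited table, 1 of the 10 genes had a q under 0.05, where 5.74% of its genes did. None of the 10 passed without the 4 BPS libraries, where 0.271% of all genes did, without the 3 vehicle libraries, where 0% did, or without both sets, where 0.0576% did (limma).

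Cd36 encodes a membrane glycoprotein that binds long-chain fatty acids, made by fat cells, capillary endothelium, muscle and macrophages. It lay at 1211, 1422 and 1750 FPKM (lowest, median and highest) in BPS libraries and at 607, 992 and 1193 FPKM in vehicle libraries. All 7 BPS libraries stood above every vehicle library, and 0.576% of all tested genes had groups that did not overlap. Cd36 (Entrez 12491, chromosome 5, 17781690 to 17888959, GRCm38.p6) averaged 1456 ± 214 FPKM in BPS (SD, n = 7) and 962 ± 226 FPKM in vehicle (SD, n = 8), a ratio of 1.51. On the log2 scale this was a change of 0.62 ± 0.156 (SE; adjusted p 0.0812, limma). In the authors' deposited table its log2 ratio of BPS to vehicle was 0.53 with a q of 0.0127.

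The size of the Cd36 difference depended on which libraries entered. Its highest BPS values, 1750, 1710 and 1526 FPKM, were those of replicates 8, 4 and 5. BPS replicate 6, of the same set of 4, was at 1291 FPKM, below replicate 3 at 1422 FPKM. The lowest vehicle values of Cd36, 607, 673 and 905 FPKM, were those of the muscle-rich replicates 2, 6 and 8. The log2 change was 0.48 ± 0.21 without the 4 BPS libraries (adjusted p 0.604), 0.39 ± 0.119 without the 3 vehicle libraries (adjusted p 0.378) and 0.25 ± 0.119 without both (adjusted p 0.918, all limma). With the muscle score as a covariate it was 0.47 ± 0.132 (adjusted p 0.201). Cd36 lay at 1211 to 1422 FPKM in BPS replicates 1, 2 and 3 and at 944 to 1193 FPKM in the other 5 vehicle libraries. Groups that do not overlap with all libraries cannot overlap with fewer, so the reduced sets add nothing on this point. Of all tested genes, 2.85% did not overlap without the BPS set, 0.913% without the vehicle set and 4.66% without both. The 8 macrophage markers summed to 430 to 704 FPKM in BPS replicates 4, 5, 6 and 8, 227 to 276 FPKM in BPS replicates 1, 2 and 3 and 229 to 343 FPKM in vehicle libraries. Log2 changes were positive for all 8 and none passed (limma), and none was at 0 in every library. All 14 muscle markers had negative log2 changes, and none passed or was at 0 in every library. The part of muscle and macrophage transcripts in the Cd36 difference was not tested. In bulk tissue, fewer cells of a type and less RNA per cell cannot be told apart.

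**Figure D2:**
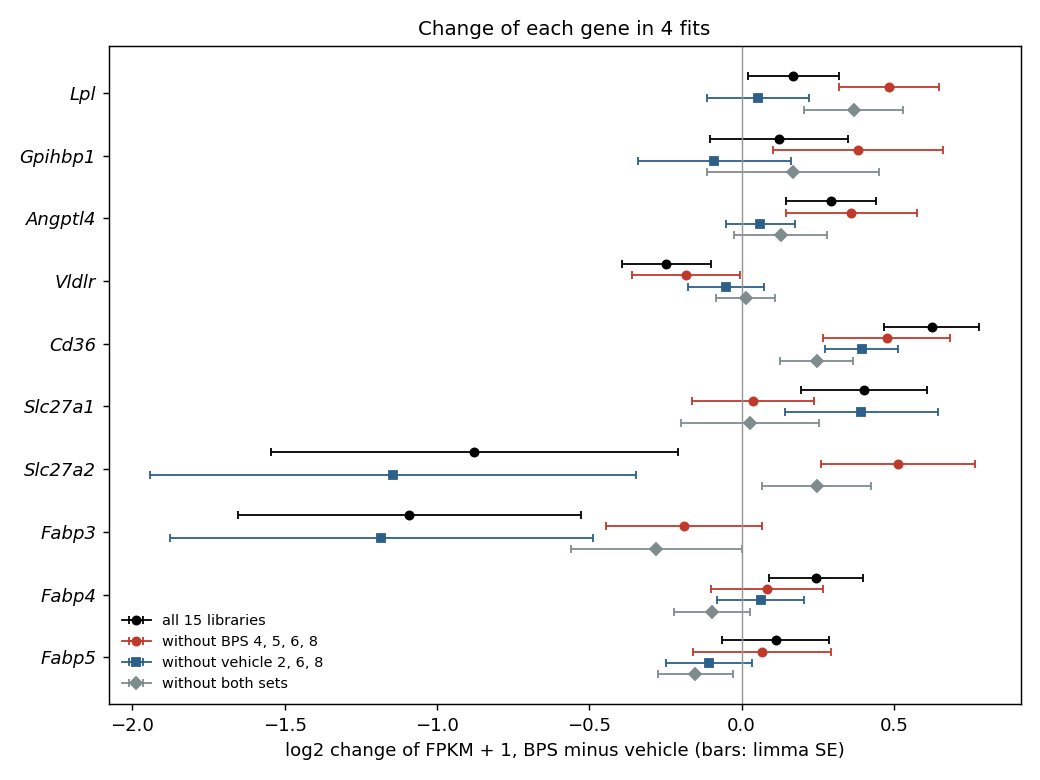
Log2 change of each of the 10 genes (BPS minus vehicle, on log2(FPKM + 1), with its limma standard error) with all 15 libraries and in the reduced sets of libraries. Cd36 stays positive, from 0.62 with all libraries to 0.25 without both sets, and Slc27a2 turns from -0.88 with all libraries to 0.51 without BPS replicates 4, 5, 6 and 8.

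The groups of Lpl, the lipase itself, overlapped, and 2 of 7 BPS libraries lay above every vehicle library. It (Entrez 16956, chromosome 8, 68880555 to 68906932) lay at 1763, 2010 and 2983 FPKM in BPS libraries and at 1547, 1885 and 2669 FPKM in vehicle libraries. BPS replicates 1, 2 and 3 had 2364 to 2983 FPKM and BPS replicates 4, 5, 6 and 8 had 1763 to 2010 FPKM. Replicate 2, at 2364 FPKM, and all of replicates 4, 5, 6 and 8 lay inside the vehicle range. These sets of libraries were chosen after the data were seen, and how many genes separate them was not counted. Its log2 change was 0.17 ± 0.148 with all libraries (adjusted p 0.483) and 0.48 ± 0.164 without the 4 BPS libraries (adjusted p 0.433, limma). Without the 3 vehicle libraries it was 0.05 ± 0.168 (adjusted p 0.893), and without both sets 0.37 ± 0.162 (adjusted p 0.895, limma).

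Gpihbp1, made by capillary endothelium, carries the lipase to the vessel lumen. It (Entrez 68453, chromosome 15, 75596630 to 75598213) lay at 350.5, 469 and 773 FPKM in BPS libraries and at 349.7, 410 and 833 FPKM in vehicle libraries. The ranges nearly coincided, and the log2 change was 0.12 ± 0.226 (adjusted p 0.757, limma). The lowest BPS library, replicate 4, also had the lowest sum of 10 endothelial markers, 354 FPKM, and the highest vehicle library, replicate 1, had the highest sum, 1377 FPKM. Other libraries went the other way. BPS replicate 8 had 721 FPKM of Gpihbp1 and a sum of 632 FPKM, against 469 and 674 FPKM in BPS replicate 1. The lowest vehicle library, replicate 6, had a sum of 645 FPKM, above the 581 FPKM of vehicle replicate 7. The endothelial sum was 354 to 632 FPKM in BPS replicates 4, 5, 6 and 8, 674 to 1160 FPKM in BPS replicates 1, 2 and 3 and 581 to 1377 FPKM in vehicle libraries. Of the endothelial markers, 2 of 10 had positive log2 changes and none passed, and none was at 0 in every library. Their part in the Gpihbp1 values was not tested. Without the 3 vehicle libraries the log2 change of Gpihbp1 was -0.09 ± 0.251 (adjusted p 0.878), and without the 4 BPS libraries it was 0.38 ± 0.279 (adjusted p 0.733).

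Angptl4, the secreted inhibitor of the lipase, is a known target of PPAR receptors and is induced by fasting. It (Entrez 57875, chromosome 17, 33774900 to 33781575) lay at 389, 419 and 483 FPKM in BPS libraries and at 244, 350 and 467 FPKM in vehicle libraries. The BPS libraries lay close together, with a coefficient of variation of 9.14%, against 25.8% in vehicle, and all 7 stood above the vehicle mean. Angptl4 averaged 428 ± 39.1 FPKM in BPS (SD, n = 7) and 359 ± 92.4 FPKM in vehicle (SD, n = 8). The log2 change was 0.29 ± 0.148 (adjusted p 0.246, limma). The vehicle libraries rich in muscle held the lowest 3 values, 244, 247 and 310 FPKM, and without them the log2 change was 0.06 ± 0.113 (adjusted p 0.81). The other 5 vehicle libraries averaged 413 ± 65.2 FPKM, and 3 of 7 BPS libraries, at 389 to 395 FPKM, lay below that mean. The log2 change of Angptl4 was 0.36 ± 0.215 without the 4 BPS libraries (adjusted p 0.676, limma) and 0.13 ± 0.152 without both sets.

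Vldlr, a receptor that binds triglyceride-rich lipoproteins, had the lowest mean level of the 10. It (Entrez 22359, chromosome 19, 27216480 to 27254231) lay at 15.7, 20.5 and 25.8 FPKM in BPS libraries and at 20.02, 22.8 and 35.4 FPKM in vehicle libraries. Below every vehicle library stood 3 BPS libraries, and the muscle-rich vehicle libraries held the highest 3 vehicle values, 24.9 to 35.4 FPKM. Vldlr had a log2 change of -0.25 ± 0.146 with all libraries (adjusted p 0.313), -0.05 ± 0.126 without the 3 vehicle libraries (adjusted p 0.863) and 0.01 ± 0.0971 without both sets (adjusted p 1.00, all limma).

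Slc27a1 and Slc27a2, which encode fatty acid transport proteins with acyl-CoA synthetase activity, went opposite ways in BPS replicates 4 and 8. Slc27a1 (Entrez 26457, chromosome 8, 71568728 to 71587307) lay at 92.1, 121.8 and 226 FPKM in BPS libraries and at 74.1, 102.0 and 157 FPKM in vehicle libraries. Replicates 4 and 8 of BPS were its highest, at 226 and 207 FPKM, and the other 5 BPS libraries lay within the vehicle range. Slc27a1 had a log2 change of 0.40 ± 0.206 (adjusted p 0.254), and 0.04 ± 0.201 without the 4 BPS libraries (adjusted p 0.958, limma). Without the 3 vehicle libraries its change was 0.39 ± 0.251 (adjusted p 0.492, limma).

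Slc27a2 (Entrez 26458, chromosome 2, 126553024 to 126588243) lay at 3.08, 88.1 and 194.6 FPKM in BPS libraries and at 74.5, 130.2 and 171.5 FPKM in vehicle libraries. Its lowest 2 values were 3.08 FPKM in BPS replicate 4 and 35.5 FPKM in BPS replicate 8, and BPS replicates 1, 2 and 3 held 160 to 194.6 FPKM. Slc27a2 had a log2 change of -0.88 ± 0.668 with all libraries (adjusted p 0.427), -0.21 ± 0.341 without BPS replicate 4 (adjusted p 0.772) and 0.51 ± 0.253 without all 4 BPS libraries (adjusted p 0.644, all limma). Without the 3 vehicle libraries its change was -1.14 ± 0.798 (adjusted p 0.519, limma). BPS replicates 4 and 8 also had the lowest brown fat marker sums, 1225 and 6155 FPKM. In BPS replicates 4, 5, 6 and 8 the sum of 10 white fat markers was 12620 to 21976 FPKM, against 10233 to 13302 FPKM in BPS replicates 1, 2 and 3 and 5958 to 17540 FPKM in vehicle libraries. The mean log2(FPKM + 1) of these white markers did not overlap between those 4 libraries and the rest. It was 6.90 to 7.82 in those 4, 5.21 to 6.45 in BPS replicates 1, 2 and 3 and 5.36 to 6.88 in vehicle libraries. White markers had positive log2 changes in 8 of 9 tested and brown markers in 2 of 8, and none passed. Their part in the Slc27a1 and Slc27a2 values was not tested. Of 3754 exonic bases of Slc27a2, 419 are shared with Gm26697 on the opposite strand, and the strand setting of the counting is not given in the sources used here.

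**Figure D3:**
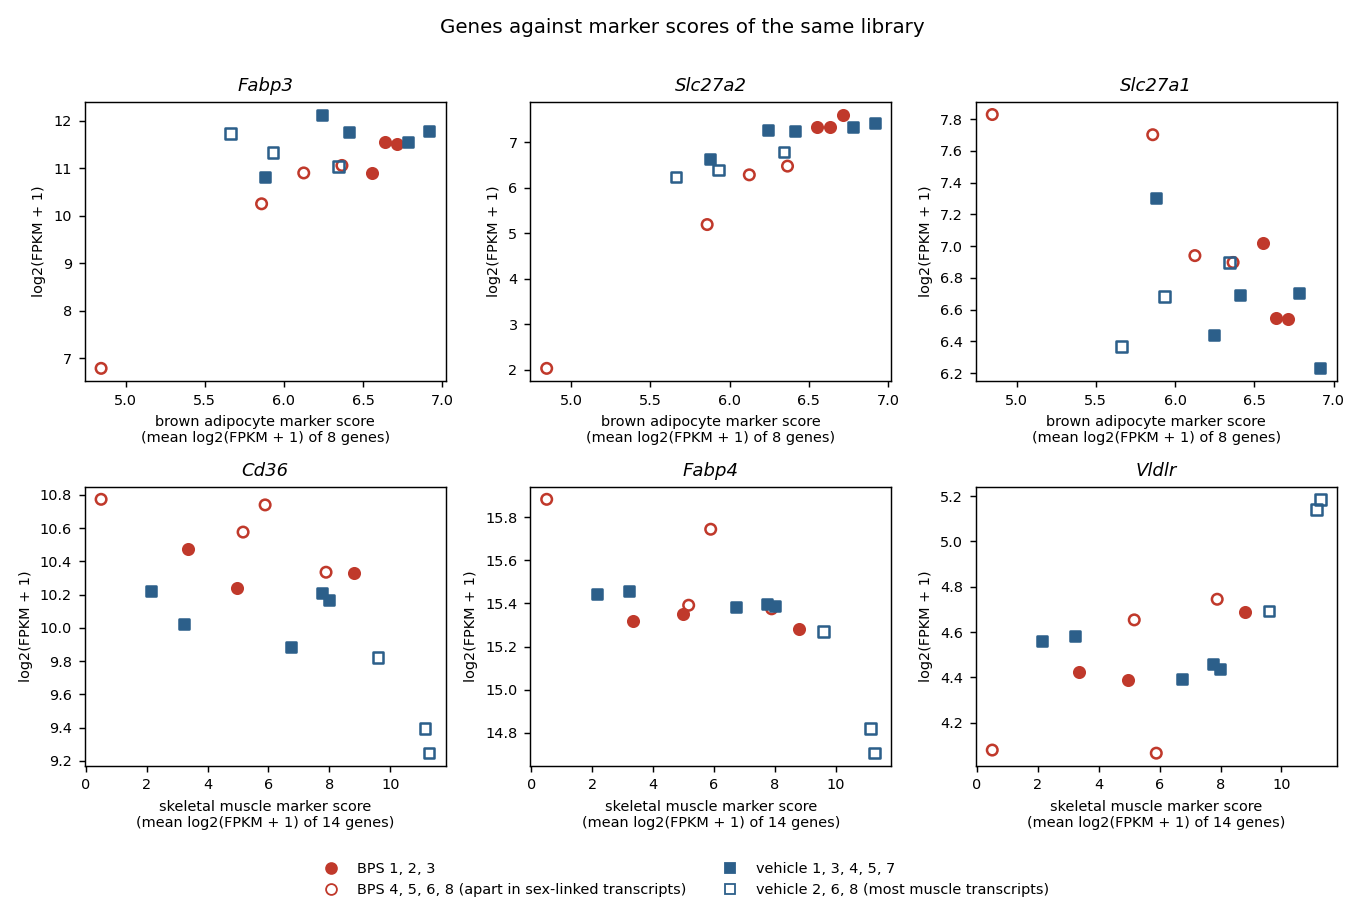
Levels (log2(FPKM + 1)) of Fabp3, Slc27a2 and Slc27a1 against the brown fat marker score and of Cd36, Fabp4 and Vldlr against the skeletal muscle marker score (mean log2(FPKM + 1) of the markers), 1 point per library, with BPS as circles, vehicle as squares and open symbols for the sets that stood apart. BPS replicate 4 is alone at a brown score of 4.85, with the lowest Fabp3 and Slc27a2, and vehicle replicates 2 and 6, at muscle scores of 11.3 and 11.1, have the lowest Cd36 and Fabp4 and the highest Vldlr.

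Among the binding proteins, Fabp3, known from heart, muscle and brown fat, had the lower mean in BPS. It (Entrez 14077, chromosome 4, 130308738 to 130315463) lay at 109, 1915 and 3018 FPKM in BPS libraries and at 1811, 3182 and 4476 FPKM in vehicle libraries. All 7 BPS libraries were below the vehicle mean, and 2 were below every vehicle library, replicate 4 at 109 FPKM and replicate 8 at 1215 FPKM. Fabp3 averaged 1888 ± 1002 FPKM in BPS (SD, n = 7) and 3036 ± 862 FPKM in vehicle (SD, n = 8). Fabp3 had a log2 change of -1.09 ± 0.563 with all libraries (adjusted p 0.258), -0.48 ± 0.226 without BPS replicate 4 (adjusted p 0.309) and -0.19 ± 0.257 without the 4 BPS libraries (adjusted p 0.826, all limma). Without the 3 vehicle libraries its change was -1.18 ± 0.694 (adjusted p 0.472, limma). The brown fat marker sums of BPS replicates 4 and 8, given above, were the lowest as well, and their part in the Fabp3 difference was not tested. Of 823 exonic bases of Fabp3, 81 are shared with Zcchc17 on the opposite strand.

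Fabp4 (Entrez 11770, chromosome 3, 10204342 to 10208616) lay at 39796, 42492 and 60438 FPKM in BPS libraries and at 26706, 42802 and 44956 FPKM in vehicle libraries. BPS replicates 8 and 4 were the highest, at 60438 and 54890 FPKM, and the muscle-rich vehicle libraries were the lowest, at 26706 to 39498 FPKM. The log2 change was 0.24 ± 0.153 with all libraries (adjusted p 0.337), 0.06 ± 0.143 without the 3 vehicle libraries (adjusted p 0.848) and -0.10 ± 0.125 without both sets (adjusted p 1.00, all limma). Without both sets the groups of Fabp4 did not overlap, at 39796 to 41846 FPKM in BPS and 42788 to 44956 FPKM in vehicle, as in 4.66% of all tested genes. Fabp5, the epidermal form, is made by fat cells, endothelium and macrophages and lies near Fabp4 on the chromosome. It (Entrez 16592, chromosome 3, 10012585 to 10016610) lay at 149.6, 210.4 and 281 FPKM in BPS libraries and at 104, 202 and 245.5 FPKM in vehicle libraries. Its groups overlapped widely, with a log2 change of 0.11 ± 0.176 (adjusted p 0.716, limma). Processed pseudogenes of Fabp3 and Fabp5 are annotated, and reads shared with them would make these values uncertain.

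Ratios between genes of the same library, were compared for 4 pairs on log2 values of FPKM + 1 (percentages are of plain FPKM) with two-sided exact permutation tests over libraries, adjusted over the 4. Fabp3 was at 4.41 ± 2.56% of Fabp4 in BPS (SD, n = 7) and 8.01 ± 2.73% in vehicle (SD, n = 8), with all 7 BPS libraries below the vehicle mean. The difference in the mean log2 ratio was -1.34, with an exact p of 0.0162 and an adjusted p of 0.0646. It was -0.68 without BPS replicate 4 (exact adjusted p 0.176) and -0.27 without the 4 BPS libraries (exact adjusted p 0.897). Angptl4 was at 19.7 ± 3.86% of Lpl in BPS and 17.9 ± 2.66% in vehicle, a log2 difference of 0.12 (exact adjusted p 0.489). Gpihbp1 was at 25.4 ± 7.00% of Lpl in BPS and 25.9 ± 5.49% in vehicle, a difference of -0.05 (exact adjusted p 0.80). Fabp5 was at 0.447 ± 0.0611% of Fabp4 in BPS and 0.489 ± 0.0568% in vehicle, a difference of -0.13 (exact adjusted p 0.381).

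**Figure D4:**
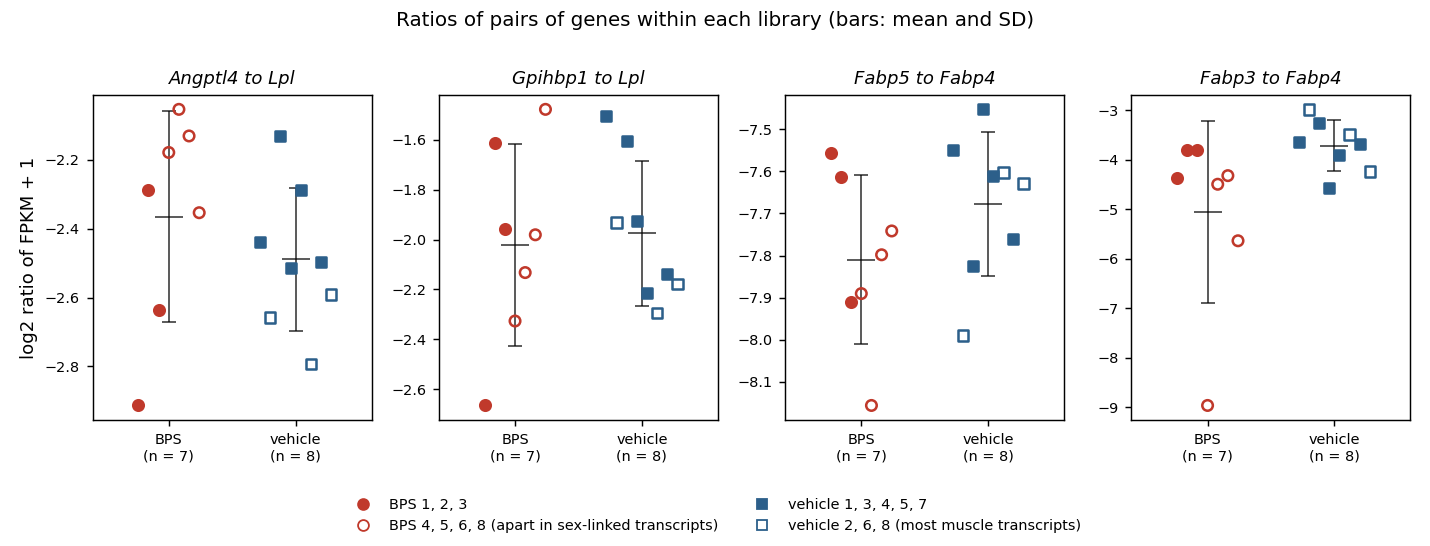
Log2 ratios of 4 pairs of genes in 7 BPS libraries on the left and 8 vehicle libraries on the right, 1 point per library with the mean and SD. Fabp3 to Fabp4 reaches -8.96 in BPS replicate 4 and has 2 BPS libraries below every vehicle library. The groups overlap in all 4 ratios.

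Of 72 other genes of the pathway, 56 were tested and 1 passed, Glce, where 0.411% of all tested genes did. Log2 changes were positive in 38 of the 56 with a median of 0.14, against 7107 of 12156 with a median of 0.05 over all tested genes. Glce encodes the epimerase that modifies heparan sulfate, the cell-surface sugar chain to which the lipase binds. It rose in BPS, to 9.26 ± 1.93 FPKM (SD, n = 7) against 5.87 ± 0.958 FPKM in vehicle (SD, n = 8), and 6 of 7 BPS libraries lay above every vehicle library. The log2 change of Glce was 0.57 ± 0.115 (adjusted p 0.0473), 0.48 ± 0.121 without the 4 BPS libraries (adjusted p 0.231) and 0.54 ± 0.134 without the 3 vehicle libraries (adjusted p 0.356, all limma). Among genes of lipase maturation and cofactors, 1 of 16 tested was higher, none lower, and 12 had positive changes. Apoe, an apolipoprotein that receptors recognise, averaged 3037 ± 716 FPKM in BPS and 1700 ± 618 FPKM in vehicle, a log2 change of 0.89 ± 0.225 (adjusted p 0.0826, limma). Its change was 0.55 ± 0.291 without the 4 BPS libraries (adjusted p 0.654) and 0.56 ± 0.201 without the 3 vehicle libraries (adjusted p 0.394).

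In the other lists no gene passed in either direction. Positive log2 changes were found in 4 of 5 lipoprotein receptors, where the HDL receptor gene Scarb1 averaged 51.7 ± 6.66 FPKM in BPS and 34.2 ± 11.2 FPKM in vehicle (0.63 ± 0.165, adjusted p 0.0883). Scarb2, a lysosomal membrane protein of the CD36 family, had a log2 change of 0.24 ± 0.0737 (adjusted p 0.111). Of 10 genes of CD36 handling and caveolae 8 were positive, among them the caveolar coat gene Cavin2 (0.41 ± 0.146, adjusted p 0.133) and the macrophage scavenger receptor gene Msr1 (0.58 ± 0.209, adjusted p 0.138). Without the 4 BPS libraries the changes were 0.13 ± 0.0763 for Scarb2, 0.22 ± 0.164 for Cavin2 and -0.03 ± 0.144 for Msr1. Without the 3 vehicle libraries the changes were 0.23 ± 0.0894 for Scarb2, 0.28 ± 0.156 for Cavin2 and 0.46 ± 0.254 for Msr1. Scarb1 had a change of 0.42 ± 0.159 without the 3 vehicle libraries and 0.73 ± 0.235 without the 4 BPS libraries. Of 4 long-chain acyl-CoA synthetases, which trap fatty acids inside the cell, 2 were positive. Acsl1 had a log2 change of 0.38 ± 0.159 (adjusted p 0.182) and Acsl3 one of -0.32 ± 0.125 (adjusted p 0.158, limma). These were 0.20 ± 0.137 and -0.17 ± 0.119 without the 3 vehicle libraries, and 0.29 ± 0.221 and -0.21 ± 0.163 without the 4 BPS libraries. Of 14 regulators of uptake 7 were positive, and the receptor genes Rxra (0.42 ± 0.162) and Ppard (0.23 ± 0.0917) had adjusted p of 0.153 and 0.158, all by limma. Without the 4 BPS libraries the changes were 0.08 ± 0.141 for Rxra and 0.07 ± 0.0925 for Ppard. Without the 3 vehicle libraries they were 0.42 ± 0.203 and 0.25 ± 0.113.

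Other relatives of the 10 genes were measured as well. Slc27a4 averaged 11.03 ± 0.604 FPKM in BPS and 9.91 ± 1.74 FPKM in vehicle, and Slc27a3 averaged 1.75 ± 0.337 FPKM in BPS and 1.38 ± 0.498 FPKM in vehicle. Their log2 changes were 0.16 ± 0.0987 and 0.22 ± 0.125, with adjusted p of 0.335 and 0.288 (limma). Slc27a5 and Slc27a6 did not exceed 0.28 FPKM in any library. Of the other carriers, 3 of 5 tested were positive, and the acyl-CoA binding protein gene Dbi (-0.21 ± 0.189) and the fatty acid receptor gene Ffar4 (0.13 ± 0.173) had adjusted p of 0.501 and 0.65. Without the 3 vehicle libraries the changes were -0.02 ± 0.157 for Ffar4, whose sign turned, -0.37 ± 0.174 for Dbi, 0.0099 ± 0.0624 for Slc27a4 and 0.14 ± 0.147 for Slc27a3. Without the 4 BPS libraries they were 0.19 ± 0.226 for Ffar4, -0.11 ± 0.262 for Dbi, 0.13 ± 0.144 for Slc27a4 and 0.17 ± 0.174 for Slc27a3. Angptl8, which takes part in inhibition of the lipase, ranged from 8.61 to 36.3 FPKM in BPS and from 11.04 to 58.1 FPKM in vehicle, with a log2 change of -0.08 ± 0.35 (adjusted p 0.901).

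The tested genes most alike to the 10 genes across libraries were found by Pearson's r over 15 libraries after group means were subtracted. The libraries also differed in tissue make-up, and its part in these values was not tested. Slc27a2 was most like Cpt1b (r 0.982), which admits fatty acids to mitochondria, and the respiratory subunit gene Cox8b (0.981). Fabp3 was most like another such gene, Cox7a1 (0.979), and Id2 (0.977). Gpihbp1 was most like Fli1 (0.968), a transcription factor gene of endothelium, and Ablim3 (0.966). Cd36 was most like Ankef1 (0.949) and the monoglyceride lipase gene Mgll (0.943). Slc27a1 was most like Tax1bp1 and Xrcc2, Fabp4 like H2afj and Ap3s1, Angptl4 like Dbnl and Ptprg, Lpl like Dram2 and Zbp1, and Fabp5 like Trp53i13 and Dgat1, with r from 0.885 to 0.954. In the 8 libraries outside both sets the r of Fabp5 with Dgat1, a triglyceride synthesis gene, was 0.0845, and that of Gpihbp1 with Fli1 was 0.993.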

How the data were processed

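Brown adipose tissue RNA of 7 BPS and 8 vehicle mice was measured as FPKM, which the authors deposited rounded to 2 decimals. The build was GRCm38.p6 and the listed tools were DESeq2 1.4.5, RSEM 1.3.1, HISAT2 2.1.0 and Bowtie2, per the submitters' processing notes. The deposited table also held the authors' log2 ratio, p-value and q-value per gene, used only where named. FPKM depends on the total of a library, so a very abundant transcript lowers the values of others. No counts were used, so read depth is unknown.

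Genes reaching 1 FPKM in 7 or more libraries entered limma 3.58.1 (R 4.3.3, trend, robust) on log2(FPKM + 1), a scale that understates changes of low genes. P-values were adjusted over all 12156 genes by Benjamini-Hochberg. Errors are SDs of FPKM and standard errors of log2 changes. The 4 ratios were compared by exact permutation. Both tests were checked on simulated data. P-values set group differences against the spread between these libraries, taken as independent, and some BPS libraries may not be independent mice. Coordinates and upstream sequences are from RefSeq, and overlaps from the transcript annotation of the same build.

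The 10 genes, the lists and the ratios were chosen with earlier results of these data known. Named besides the 10 genes were pathway genes past the threshold, the 2 of smallest p in each list and the 2 most alike to each of the 10. A result that this rule names is not reported here. Slc27a5, Slc27a6 and Angptl8 were named after their values were seen. Alternatives were quantile or median scaling, no trend, non-robust spread, filters of none and 5 FPKM, pseudocounts of 0.1 and 5, a replicate block, a muscle covariate and libraries left out.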

Additional observations from a re-analysis of the deposited data

Results flagged for a closer look

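The Fabp3 to Fabp4 log2 ratio was -8.96 in BPS replicate 4, far from the other BPS libraries, which lay between -5.63 and -3.79, and from vehicle libraries, which lay between -4.57 and -2.98. It was the only sample flagged among 28 groups of values tested for an outlying one. Chance gives an outlying sample in about 1 of 20 groups. What is flagged depends on the scale. The ratio was tested on log2 values, and the scale for single genes is not given here. Fabp3 by itself was lowest in BPS replicate 4 too, with 109 FPKM. Its next lowest level in any library was 1215 FPKM, found in BPS replicate 8. BPS replicate 4 also had the lowest Y-linked level, 0.437% of the vehicle mean, and the lowest brown fat marker sum, 1225 FPKM. The part of the Y-linked level and of the brown fat sum in the ratio was not tested.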

How the results depend on the processing

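None of the 10 genes passed the threshold in any of 28 alternative fits (limma), and Cd36, Lpl, Slc27a1 and Angptl4 stayed positive and Fabp3 negative in all of them. The adjusted p of Cd36 ranged from 0.0627 to 0.918 and its log2 change from 0.25 to 0.70. Over all genes, 42 higher and 8 lower with the stated settings, the counts were 8 and 1 with no filter, 24 and 5 with a filter of 5 FPKM, 15 and 2 with a pseudocount of 5, and 1 and 1 with the muscle covariate. They were 32 and 1 without BPS replicates 4, 5, 6 and 8, 0 and 0 without vehicle replicates 2, 6 and 8 (limma, 1440 genes at an unadjusted p under 0.05), and 7 and 0 without both sets. With median scaling 21 genes were lower. With each library left out the counts ranged from 0 to 61 higher and from 1 to 27 lower. No gene was higher without BPS replicate 8 or vehicle replicate 8 (limma, 2112 and 2420 genes at an unadjusted p under 0.05). Leaving out BPS replicate 3 or 5 gave 2 higher and 1 lower, BPS replicate 4 gave 3 and 1, BPS replicate 6 gave 9 and 1, BPS replicate 2 gave 61 and 27, and BPS replicate 1 gave 30 and 3. Leaving out vehicle replicate 2, 6 or 7 gave 1 and 1, vehicle replicate 1 gave 31 and 5, vehicle replicate 3 gave 12 and 1, and vehicle replicate 5 gave 9 and 3. Signs turned for Gpihbp1 (-0.0903) without the vehicle set, for Fabp4 (-0.10) and Vldlr (0.0140) without both sets, and for Slc27a2 without the BPS set (0.51) or both (0.25). Fabp5 ranged from -0.00808 to 0.184 with single libraries left out, turned to -0.00808 without vehicle replicate 2, and was -0.0264 with the muscle covariate, -0.11 without the vehicle set and -0.15 without both. Angptl4 to Lpl turned to -0.12 without the BPS set and -0.24 without both. Gpihbp1 to Lpl ranged from -0.138 to 0.0599 with single libraries left out, and turned to 0.0599 without BPS replicate 1, 0.00349 without BPS replicate 4, 0.0198 without vehicle replicate 1 and 0.00531 without vehicle replicate 3. Fabp3 to Fabp4 ranged from -1.55 to -0.685 in the same fits and passed without BPS replicate 2 (-1.55, exact adjusted p 0.032), BPS replicate 3 (-1.54, 0.032) or vehicle replicate 4 (-1.46, 0.0256), within an exact adjusted p of 0.0256 to 0.897 over 21 alternatives. The cause of these shifts was not tested. The libraries outside both sets allow too few splits for a lone ratio to pass, whatever its difference. Under quantile normalization Fabp4 has no change by construction, since it ranks first in every library.

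Replicate numbers are shared between the groups, but the labels tie no same-numbered mice, and correlations of their deviations ran from -0.418 to 0.583, with 4 of 7 over 0.1. Of 7 BPS libraries 2 were closest to the vehicle library of their own number. With the replicate block 34 genes were higher and 4 lower, and Cd36 had a log2 change of 0.65 ± 0.124 (adjusted p 0.0675, limma). None of the 10 genes or 4 ratios passed. Fabp3 to Fabp4 had a log2 difference of -1.33 (exact p 0.0156, exact adjusted p 0.0625). That exact p is the smallest that 7 pairs allow. A lone ratio could therefore not pass with the block, and the missing call for Fabp3 to Fabp4 decides nothing.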
